A study of Mus musculus with 8 samples.

Results

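Voltage-gated sodium and calcium channel genes were examined in mouse retina. The members were chosen by symbol, with earlier results of these data known, and without Cacna1f, Cacna2d4 and Cacnb2. They are the sodium channel genes (Scn with a number and a or b) and the calcium channel genes (Cacna1, Cacna2d, Cacnb and Cacng). There were 34 of them among the 26824 genes in the deposited table: 9 sodium α, 4 sodium β, 9 calcium α1, 3 calcium α2δ, 3 calcium β and 6 calcium γ genes. Of the 34, 33 passed the filter on low counts.

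RNA was sequenced from the retinas of 3 wild-type mice (WT) and of 5 mice that the labels call Kv8.2 knockouts (KO), after the potassium channel subunit encoded by Kcnv2. Each library held the 2 pooled retinas of 1 mouse aged 1 month, with no treatment and on a 12-hour light cycle. The labels give no strain, allele or sex. Library names run from WT 1 to WT 3 and from KO 2 to KO 6.

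Voltage-gated sodium channels open on depolarisation and carry the rising phase of the action potential. Their α subunit forms the whole pore, and the small β subunits tune its gating and anchor it. In calcium channels the α1 subunit forms the pore, while α2δ and β subunits set how much channel reaches the membrane. The L-type, P/Q-type, N-type, R-type and T-type classes differ in their α1 gene. Most γ genes encode TARPs, proteins that bind AMPA-type glutamate receptors rather than calcium channels. In retina, spikes arise mainly in ganglion and amacrine cells. Photoreceptor synapses use the L-type channel built from the 3 genes left out here.

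The targeted gene was present in every library. Kcnv2 stood at 519, 551 and 526 CPM (counts for each 1000000 counts of the library) in WT 1 to WT 3, and at 585, 447, 398, 409 and 409 CPM in KO 2 to KO 6. KO 2 lay above every WT library and the other 4 below, and the log2 fold change of -0.24 was not called (adjusted p = 0.275, edgeR quasi-likelihood test with Benjamini-Hochberg adjustment). The transcript level therefore does not check the labels, and the groups are called the libraries labelled WT and KO. The rod photoreceptor markers summed to 37197 CPM or more in each library, as retina should give. Depth ran from 17759146 to 25188870 counts. Mitochondrial genes took 7.09% to 7.92% of the counts in WT, 6.52% in KO 2, 5.23% in KO 3 and 3.03% to 3.70% in KO 4 to KO 6. On the first principal component, KO 4 to KO 6 stood apart from the other 5 libraries. On the second, KO 2 and KO 3 stood apart, at -54.5 and -31.7. WT lay there at 22 to 27.2 and KO 4 to KO 6 at 0.1 to 9.3. Lens genes took 4.76% of KO 3. WT 3 was the only library with Y-linked transcripts (2132 counts of Ddx3y, against 3 or fewer elsewhere). Results are therefore also given for KO 2 and KO 3 and for KO 4 to KO 6 apart, which share the WT libraries.

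Of the 33 genes tested, 4 were called at an adjusted p under 0.05 over all 20167 genes, of which 7.58% were called. They include Scn4a and Cacna2d3, which fell, and Cacna1i, which rose. By direction, 4.74% of all genes were called higher and 2.84% lower. DESeq2 called 3034 of all genes and limma voom with quality weights 8248, against 1529 by edgeR. Counts by these tools below are to be read beside these. The fold change was above 0 for 22 of the channel genes and below 0 for 11, with a median log2 fold change of 0.14 against 0.00 over all genes. Every KO library lay above every WT library for 5 genes, among them Cacna1c, Cacna1i, Cacnb1 and Scn8a, a pattern shown by 10.8% of all genes. Every KO library lay below every WT library for Scn4a and Cacna2d3, as for 10.1% of all genes, so that 7 did not overlap, against 20.9% of all genes. With 2 of 33 called in each direction, and 5 and 2 of 33 without overlap, the counts were near those of the whole table. Exons of 9 channel genes, Cacna1h among them, overlap a gene on the opposite strand, and since no strand setting is stated their counts may include reads of that gene. None of the 4 called genes has such an overlap.

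**Figure D1:**
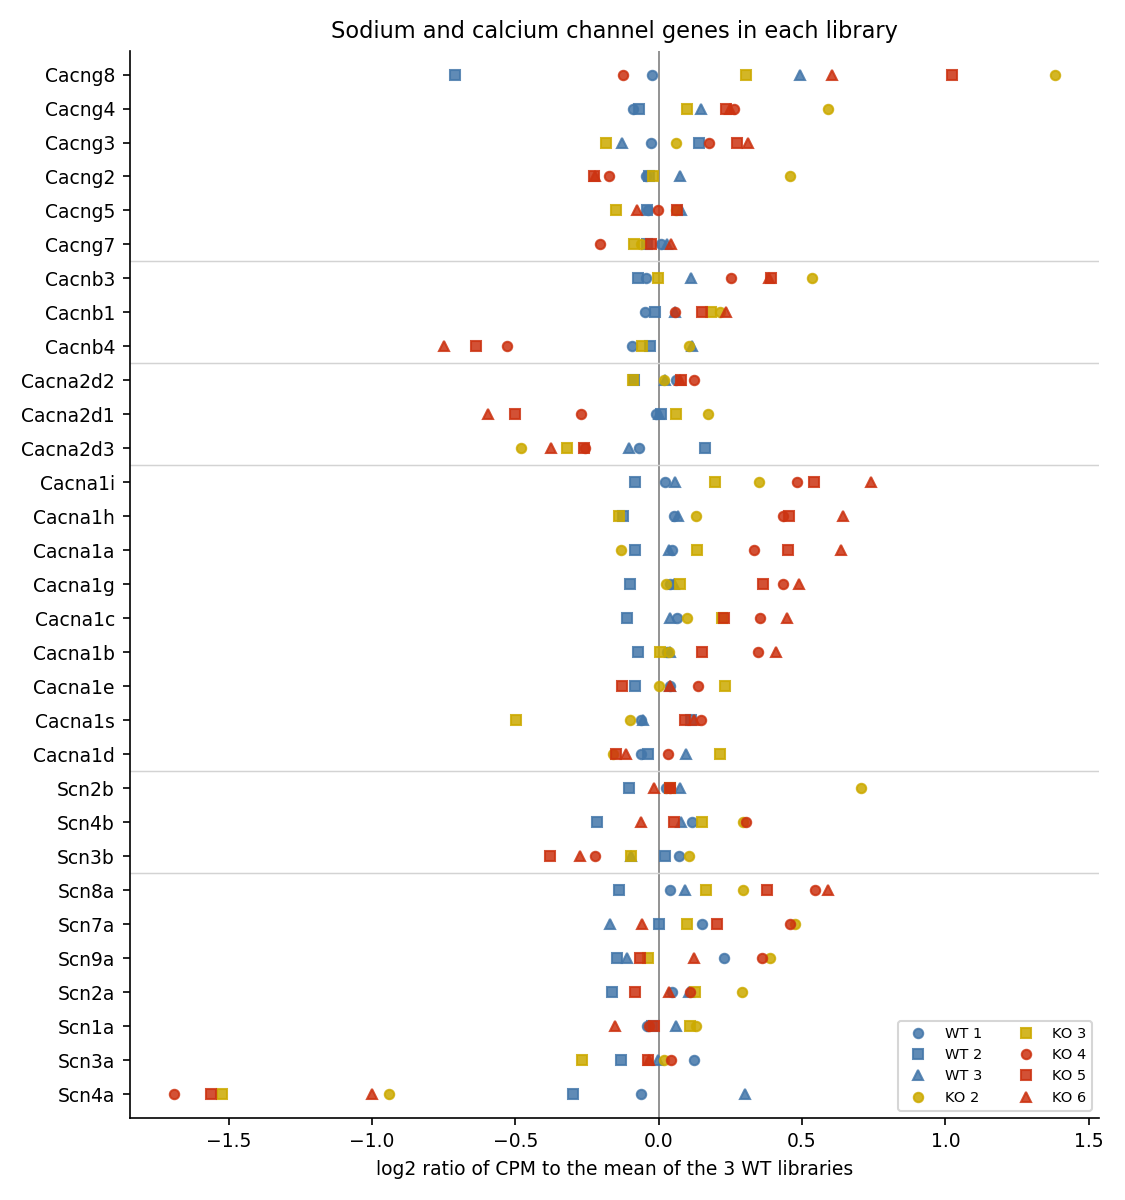
Log2 ratio of TMM-scaled CPM to the mean of the 3 WT libraries (x axis) for the tested channel genes (y axis), 1 symbol per library; lines separate the 6 subunit families. Scn4a lies far to the left in all 5 KO libraries, and KO 4 to KO 6 lie to the right of WT for Cacna1a, Cacna1g, Cacna1h and Cacna1i.

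The promoters of Scn4a, the gene with the largest difference, and Cacna1i, the T-type gene that rose, are shown from RefSeq (build GRCm38.p6), each 300 bases long from 250 before to 50 after the start, 5′ to 3′ on the gene's own strand, with CpG dinucleotides in capitals.
Scn4a, chr11:106349341-106349640, minus strand: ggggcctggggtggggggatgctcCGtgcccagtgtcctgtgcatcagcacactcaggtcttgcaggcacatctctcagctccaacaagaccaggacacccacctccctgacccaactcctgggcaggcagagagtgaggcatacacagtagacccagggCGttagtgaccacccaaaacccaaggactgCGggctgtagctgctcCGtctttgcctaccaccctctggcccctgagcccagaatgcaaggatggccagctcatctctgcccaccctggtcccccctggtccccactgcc
Cacna1i, chr15:80286988-80287287, plus strand: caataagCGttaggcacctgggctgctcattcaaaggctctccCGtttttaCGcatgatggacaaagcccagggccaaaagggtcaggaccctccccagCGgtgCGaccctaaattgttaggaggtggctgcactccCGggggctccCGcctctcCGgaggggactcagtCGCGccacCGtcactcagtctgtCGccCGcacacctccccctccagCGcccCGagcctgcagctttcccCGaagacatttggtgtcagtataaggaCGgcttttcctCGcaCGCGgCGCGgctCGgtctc
The Scn4a window held 4 CpG dinucleotides and the Cacna1i window 23, against a median of 7 over all 32851 promoters. Their GC contents were close, at 63.0% and 62.7%. Both strands were searched for TAATCC, the homeodomain core bound by CRX and OTX2 (in 7.1% of all promoters), for the E-box CAGCTG (16.3%) and for the GC box GGGCGG (35.7%). The RefSeq start of Scn4a lies inside the longer GENCODE gene. None of the 3 motifs was in either window, which says only that these letters are not there. Of the 34 channel genes, 26 were matched to 36 promoters, and 4, 11 and 14 of these held the 3 motifs in that order.

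Scn4a encodes the sodium channel best known as that of skeletal muscle. It lies at chr11:106318592-106353288 on the minus strand (GRCm38, GENCODE M21). WT 1 to WT 3 held 22.4, 19.0 and 28.8 CPM of it. In KO 2 to KO 6 it was 12.2, 8.13, 7.24, 7.92 and 11.7 CPM. The groups did not overlap: the highest KO library, KO 2, stayed below the lowest WT library, WT 2. Group means were 23.4 ± 4.97 CPM for WT (SD, n = 3) and 9.43 ± 2.31 CPM for KO (SD, n = 5), or 0.403 times the WT level. On the log2 scale the fold change was -1.31 (SE 0.20), with an adjusted p of 0.00752 (edgeR quasi-likelihood test, Benjamini-Hochberg). In whole retina, fewer cells of a type and less RNA per cell cannot be told apart, here and for each gene below.

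The difference in Scn4a was of similar size in both sets of KO libraries. Its log2 fold change was -1.21 in KO 2 and KO 3 (adjusted p = 0.0535, edgeR) and -1.37 in KO 4 to KO 6 (adjusted p = 8.15e-05, edgeR). It was called in each of the 8 fits that left out 1 library, with adjusted p from 0.00401 to 0.0499 (edgeR). It was called in 9 of the 10 fits that left out a pair of KO libraries. Without KO 4 and KO 5 the log2 fold change was -1.13 and the adjusted p 0.0538 (edgeR). WT 3, the library with Y-linked transcripts, had the highest WT value; without it the log2 fold change was -1.13 and the adjusted p 0.0499 (edgeR), the nearest of the 8 to the threshold.

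Skeletal muscle markers were measured for 5 of a list of 12 genes. The other 7 were not found by symbol in the deposited table, where the lowest total of a gene was 16. Over all 8 libraries none of the 5 was called by edgeR (0 at an unadjusted p under 0.05, 0 by DESeq2, 1 by voom), and all 5 had fold changes below 0. Their sum was 27.4 to 33.0 CPM in WT and 22.9 to 28.3 CPM in KO, so the groups overlapped. Most of it came from Pvalb, a calcium-binding protein also made by retinal neurons, at 16.0 to 25.6 CPM. The defining muscle genes Acta1 (0.781 to 1.53 CPM) and Ckm (0.307 to 1.81 CPM) were near the bottom of the measured range in every library. In KO 4 to KO 6 Ckm was called lower (log2 fold change -1.19, adjusted p = 0.0352, edgeR), while in KO 2 and KO 3 it had 0.13. The part of muscle RNA in the Scn4a result was not tested.

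Scn8a, a main sodium channel of axon initial segments and nodes of Ranvier, had the smallest p among the genes not called. It stood at 109, 96.4 and 113 CPM in WT 1 to WT 3. In KO 2 to KO 6 it stood at 130, 119, 155, 138 and 160 CPM. The groups did not overlap, and KO 4 to KO 6 were the highest. The log2 fold change was 0.40 (SE 0.11, adjusted p = 0.0564, edgeR), and DESeq2 called the gene (adjusted p = 0.00725).

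Scn1a, Scn2a, Scn3a, Scn7a and Scn9a did not pass the test. Scn1a, a channel of inhibitory neurons among others, averaged 91.3 ± 3.46 CPM over WT (SD, n = 3) and 92.0 ± 7.26 CPM over KO (SD, n = 5). Its log2 fold change of 0.01 (SE 0.08) turned negative with library size alone and with voom. Scn2a, Scn3a, Scn7a and Scn9a had log2 fold changes of 0.10, -0.05, 0.25 and 0.17. Scn7a encodes an atypical channel linked to sodium sensing, and Scn9a a channel of sensory neurons. Scn11a, another sensory neuron channel, was below the filter at 0.0985 to 0.658 CPM and was not tested.

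Levels of different genes were compared per kilobase of transcript (CPM per kb), using the longest coding transcript of GENCODE M21. In WT the order among sodium α genes was Scn1a (10.9 ± 0.413), Scn8a (9.28 ± 0.762), Scn2a (5.94) and Scn4a (3.55 ± 0.753), with Scn3a, Scn7a, Scn9a and Scn11a lower in that order. In KO the mean of Scn8a (12.3 ± 1.47) was above that of Scn1a (11.0), within their spread, and Scn4a had dropped to 1.43 ± 0.35. Scn4a made up 8.78% to 11.7% of the summed sodium α level per kb in WT libraries and 2.85% to 4.70% in KO libraries. Scn8a made up 25.7% to 26.5% in WT and 29.0% to 37.0% in KO. Neither pair of ranges overlapped, and such shares are linked, since one gene's fall raises the others. The summed sodium α level itself overlapped between groups, at 35.4 ± 2.31 CPM per kb in WT and 37.4 ± 1.67 in KO.

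**Figure D2:**
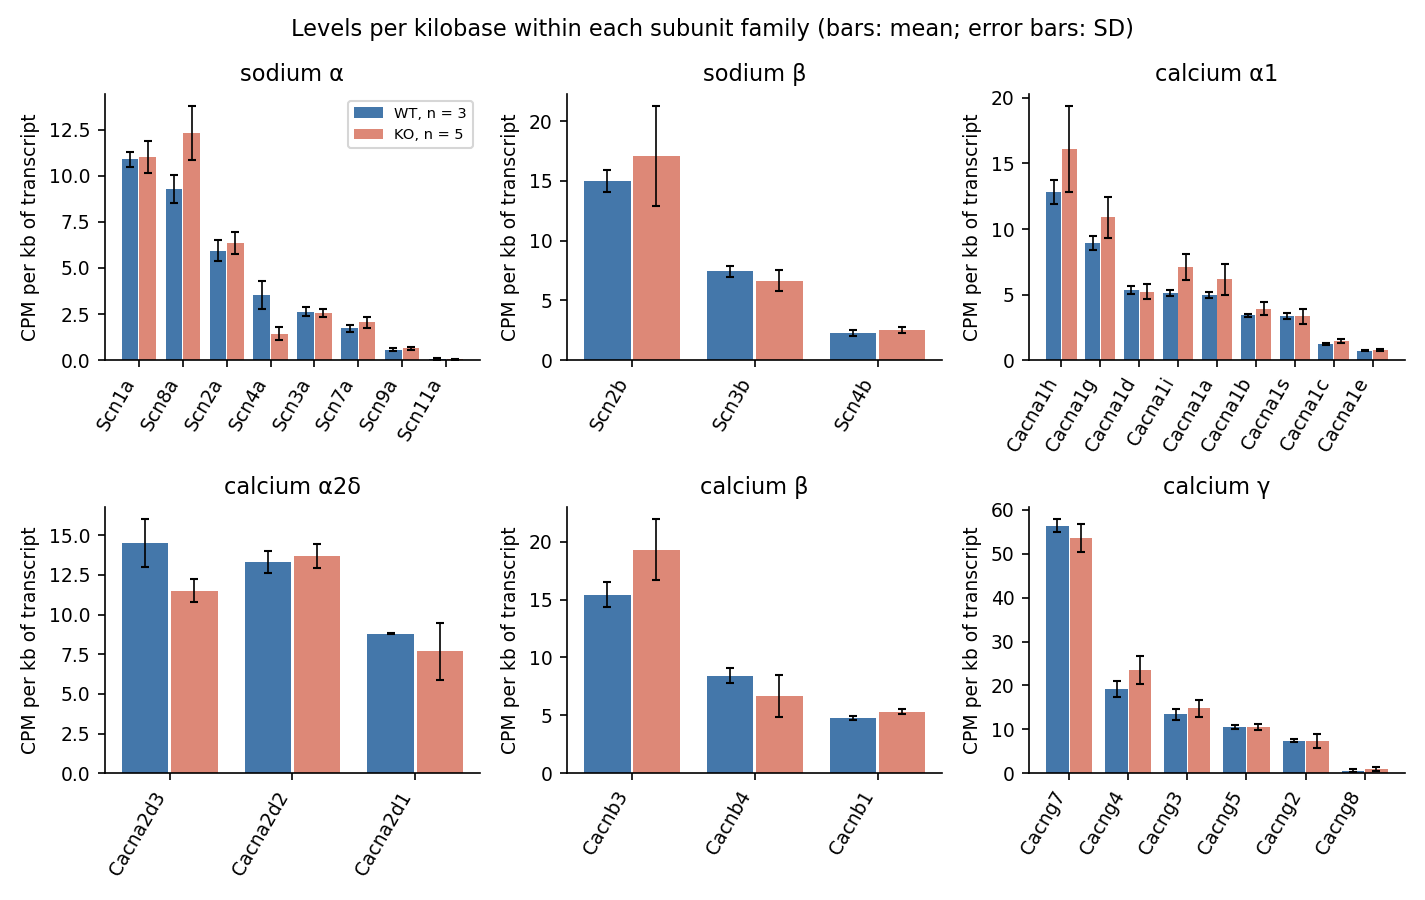
Mean level in CPM per kilobase of transcript (bars, from 0; error bars SD) of channel genes in the 3 WT and 5 KO libraries, 1 panel per subunit family. Scn4a is lower in KO (1.43 against 3.55), and Cacng7 has the highest level of the genes drawn, at 56.3 in WT; the 3 genes of the photoreceptor synaptic channel are not drawn.

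None of the 4 sodium β genes was called by edgeR (0 at an unadjusted p under 0.05, 0 by DESeq2, 1 by voom). Scn2b, Scn3b and Scn4b had log2 fold changes of 0.19, -0.16 and 0.15. Scn2b stood out in 1 library, at 114 CPM in KO 2 against 65.1 to 73.6 CPM in all others.

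The calcium α1 gene with the largest fold change was Cacna1i, which encodes a T-type channel, a class that opens at weak depolarisation. It lies at chr15:80287238-80398279 on the plus strand. It stood at 50.9, 47.3 and 52.1 CPM in WT 1 to WT 3, and at 63.9, 57.4, 70.0, 72.9 and 83.7 CPM in KO 2 to KO 6. The groups did not overlap, and KO 2 and KO 3 were the KO libraries nearest to WT. The log2 fold change was 0.47 (SE 0.12, adjusted p = 0.0384, edgeR). After GC correction it was 0.23 and still called (adjusted p = 0.0479, edgeR). Among the 8 fits without 1 library, the call held only without KO 2 or without KO 3 (adjusted p from 0.00690 to 0.170, edgeR).

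Cacna1g and Cacna1h, the other T-type genes, were not called by edgeR over all 8 libraries. Voom called both, Cacna1g at 0.38 (adjusted p = 0.00168, voom) and Cacna1h at 0.44 (adjusted p = 0.00267, voom). Cacna1g stood at 76.9, 69.8 and 77.7 CPM in WT, at 76.1 CPM in KO 2 and 78.8 CPM in KO 3, and at 101, 96.3 and 105 CPM in KO 4 to KO 6. Cacna1h stood at 109, 96.3 and 110 CPM in WT, at 115 CPM in KO 2 and 95.5 CPM in KO 3, and at 142, 144 and 164 CPM in KO 4 to KO 6. For both genes KO 2 and KO 3 lay among or next to the WT libraries, and KO 4 to KO 6 above them. The log2 fold changes over all libraries were 0.29 (SE 0.12, adjusted p = 0.147) for Cacna1g and 0.33 (SE 0.16, adjusted p = 0.205) for Cacna1h in edgeR. After GC correction they were 0.06 (adjusted p = 0.618) and 0.07 (adjusted p = 0.674) in edgeR. Without Cacna1f of the photoreceptor synapse, which is not among the members, Cacna1h had the highest level per kb of the α1 genes in WT, 12.8 CPM per kb.

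The remaining α1 genes did not pass the test. Cacna1c, an L-type channel of heart, smooth muscle and neurons, stood at 14.8 to 16.7 CPM in WT and 17.1 to 21.8 CPM in KO. These ranges did not overlap, but the log2 fold change of 0.28 (SE 0.11) had an adjusted p of 0.145 (edgeR). Voom called Cacna1c (0.31, adjusted p = 0.0135, voom). The P/Q-type gene Cacna1a had 0.31 and the N-type gene Cacna1b 0.20. The R-type gene Cacna1e had 0.06, and the L-type genes Cacna1d and Cacna1s each had -0.03.

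The summed level of vascular markers was, like Cacna1c, higher in every KO library than in WT, though the KO libraries ranked differently. The 9 genes summed to 225 to 237 CPM in WT and 339 to 383 CPM in KO, and all 9 had fold changes above 0. Kdr of endothelium and Pdgfrb of pericytes were called higher, at log2 fold changes of 0.92 and 0.93, and are named after their values were seen. Kdr alone went from a mean of 116 CPM in WT to 219 CPM in KO, most of the rise in the sum. The other 7, the smooth muscle genes Myh11 and Acta2 among them, overlapped between groups. EdgeR did not call these 7 over all 8 libraries, where 4.74% of all genes were called higher. Of the 9 markers DESeq2 called 2 and voom 5. After GC correction Rgs5 was called too (0.40, adjusted p = 0.00656, edgeR), named after its values were seen. The part of vascular cells in the Cacna1c values was not tested.

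The α2δ genes were the only family with a median log2 fold change below 0, at -0.20; after GC correction it was -0.16, and the sodium β, calcium β and γ medians were also below 0, from -0.08 to -0.07. Cacna2d3 lies at chr14:28904943-29721864 on the minus strand and encodes an auxiliary subunit that helps bring α1 pores to the membrane. It stood at 51.0, 59.8 and 49.8 CPM in WT 1 to WT 3. In KO 2 to KO 6 it stood at 38.4, 42.9, 44.8, 44.7 and 41.3 CPM. Every KO library was below every WT library, with WT 2 well above the rest. The log2 fold change was -0.34 (SE 0.09, adjusted p = 0.0487, edgeR), and -0.34 after GC correction (adjusted p = 0.0311, edgeR). It was nearly the same size in KO 2 and KO 3 (-0.40) and in KO 4 to KO 6 (-0.29). The call held without KO 2 or without KO 3 and was lost without any other single library, with the smallest difference, -0.24, without WT 2 (adjusted p = 0.241, edgeR).

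Per kb of its longest coding transcript Cacna2d3 was the highest of the 3 α2δ members in WT at 14.5 CPM per kb, but over the union of its exons the value was 6.14, below Cacna2d2 at 9.70. Cacna2d1 and Cacna2d2 had log2 fold changes of -0.20 and 0.04 and were not called. The summed α2δ level was 36.4, 37.6 and 35.7 CPM per kb in WT and 33.7, 33.3, 33.9, 32.3 and 31.0 in KO, with no overlap. The summed level of cone photoreceptor markers was also lower in every KO library than in WT, though the KO libraries ranked differently. The 8 genes of the list summed to 907 to 1116 CPM in WT and 659 to 872 CPM in KO. Their median log2 fold change was -0.42, with 3 of 8 above 0. Opn1sw, which overlapped between groups and was not called, had the largest part in the lower sum, with means of 318 CPM in WT and 212 CPM in KO. Gnat2 (-0.47) and Pde6h (-0.74) of cone phototransduction, named after their values were seen, were called lower, and Pde6c (0.51), chosen likewise with Opn1sw, higher. Of horizontal cell markers, 5 genes of a list of 6 were measured, 3 of them with fold changes above 0 and a median of 0.02. Calb1 alone was called (-0.49, and -0.08 with adjusted p = 0.715 in edgeR after GC correction), and it takes most of their sum, which was 116 to 120 CPM in WT and 78.9 to 115 CPM in KO. The sums of bipolar cell markers overlapped, at 1298 to 1393 CPM in WT and 1223 to 1457 CPM in KO. Of these 10 genes 7 had fold changes below 0, and Gng13 was called lower (-0.81, adjusted p = 0.0276, edgeR), joined by Pcp2 after GC correction (-0.38, adjusted p = 0.0391, edgeR), both named after their values were seen. The part of these cells in the Cacna2d3 result was not tested.

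**Figure D3:**
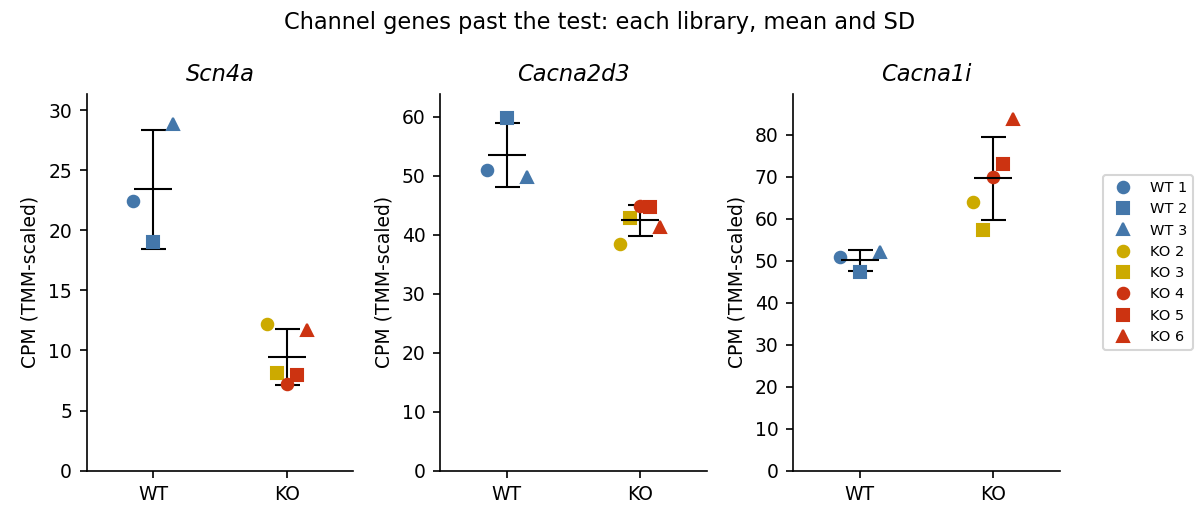
TMM-scaled CPM (y axis, from 0) of Scn4a, Cacna2d3 and Cacna1i in each library (symbols), with the mean and SD of the 3 WT and 5 KO libraries (bars). The groups do not overlap for any of the 3 genes, and for Cacna1i the KO 3 library is the nearest to WT.

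None of the calcium β genes, whose products bind α1 inside the cell, was called by edgeR (1 at an unadjusted p under 0.05, 0 by DESeq2, 2 by voom). Cacnb3 stood at 40.1 to 45.6 CPM in WT and 42.1 to 61.1 CPM in KO. Its log2 fold change of 0.32 (SE 0.12, adjusted p = 0.107, edgeR) was 0.06 after GC correction. Cacnb1 had 0.17 and Cacnb4 -0.34. Cacnb4 was split by library: it stood at 64.9 to 75.1 CPM in WT, at 74.5 CPM in KO 2, at 66.5 CPM in KO 3, and at 41.2 to 48.0 CPM in KO 4 to KO 6.

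None of the 6 γ genes was called by edgeR (1 at an unadjusted p under 0.05, 0 by DESeq2, 2 by voom). Cacng7, which encodes a TARP, had the highest level per kb in WT among the members, without the 3 genes of the photoreceptor synaptic channel. It stood at 124 ± 3.20 CPM in WT and 119 ± 7.09 CPM in KO, with a log2 fold change of -0.07 (SE 0.08). After GC correction this was -0.28 (adjusted p = 0.0854, edgeR), and -0.40 in KO 4 to KO 6, where it was called lower (adjusted p = 0.000187, edgeR). Cacng4, a TARP, stood at 63.0 to 74.3 CPM in WT and 71.8 to 101 CPM in KO, where KO 2 was the highest. Its log2 fold change was 0.30 (SE 0.11, adjusted p = 0.127, edgeR). The TARP genes Cacng2, Cacng3 and Cacng8 had -0.01, 0.14 and 0.73, and Cacng5 had -0.02. Cacng8 lay at 0.752 to 3.21 CPM, and the SE of its fold change was 0.38.

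The number of channel genes called was far apart in the 2 sets of KO libraries, a difference that was not itself tested. Against WT, KO 2 and KO 3 gave 0 called channel genes (0.891% of all genes called, 0.624% higher and 0.267% lower, edgeR), and 6 had an unadjusted p under 0.05. KO 4 to KO 6 gave 17, of which 11 were higher and 6 lower (42.8% of all genes called, 22.3% higher and 20.5% lower). The 11 included 6 of the 9 α1 genes: Cacna1a, Cacna1b, Cacna1c, Cacna1g, Cacna1h and Cacna1i. The 6 lower genes were Cacna2d1, Cacna2d3, Cacnb4, Cacng2, Scn3b and Scn4a. The share of counts from mitochondrial genes was lower in KO 4 to KO 6, and its part in these calls was not tested.

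Transcript GC content moved with the fold changes in KO 4 to KO 6. Across the 33 genes Spearman's rho was 0.557 in KO 4 to KO 6 and 0.0291 in KO 2 and KO 3, as a description over genes that share the same libraries. Over all genes with a known GC content it was 0.539 and 0.163. The 11 channel genes with at least 55% GC had a median log2 fold change of 0.44 in KO 4 to KO 6 before correction and 0.09 after it. The 7 genes with under 45% GC, which are 5 sodium α genes with Cacna2d1 and Cacnb4, went from 0.00 to 0.29.

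The correction changed which channel genes were called in KO 4 to KO 6. After it, 9 channel genes were higher and 8 lower (31.6% of all genes called, 15.9% higher and 15.7% lower). Of the 8 tested sodium α genes, 7 were called higher, at log2 fold changes from 0.21 for Scn1a to 0.63 for Scn7a, and Scn4a lower at -1.64. Before the correction 2 of them were called higher. For the α1 genes the count went the other way, from 6 higher to 2, Cacna1c and Cacna1i. Among the genes called, 4 were higher both with and without the correction (among them Cacna1c, Cacna1i and Scn8a), and 5 were lower in both (Cacna2d3, Cacnb4, Cacng2, Scn3b and Scn4a). Over all 8 libraries the correction left 3 calls, Scn4a, Cacna2d3 and Cacna1i (7.31% of all genes called, 4.30% higher and 3.01% lower). Cacna1a and Cacna1b, not called either way, came to 0.07 and 0.06. Among genes not called either way, the sign turned for Cacna2d1 (0.04), Cacna2d2 (-0.16), Cacnb1 (-0.07), Cacng3 (-0.05), Scn3a (0.17) and Scn4b (-0.01). In KO 2 and KO 3 it gave 1 call, Scn4a at -1.26 (adjusted p = 0.0459, edgeR), where 0.837% of all genes were called, 0.560% higher and 0.277% lower.

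**Figure D4:**
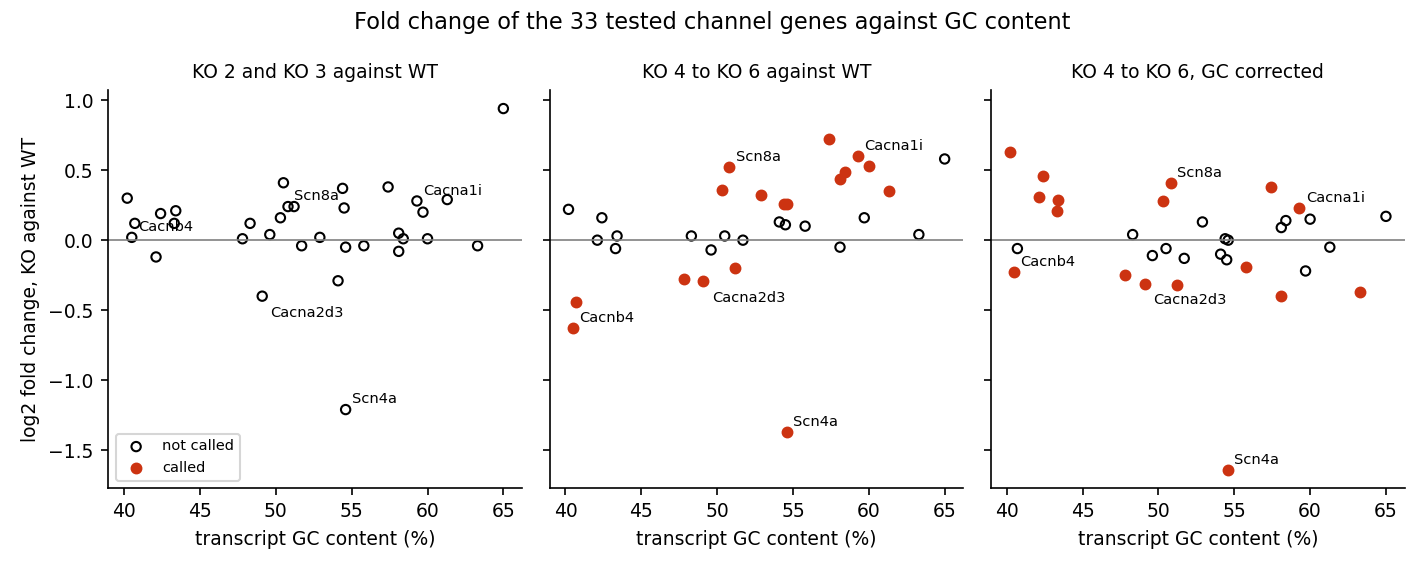
Log2 fold change against WT (y axis) of the 33 tested channel genes by transcript GC content in percent (x axis), for KO 2 and KO 3, for KO 4 to KO 6, and for KO 4 to KO 6 after GC correction; filled points passed an adjusted p under 0.05. Spearman's rho is 0.557 in the middle panel, 0.0291 in the left and -0.204 in the right, and Scn4a is the lowest point in all 3 panels.

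Genes that work with these channels were read from a list of 34, of which 33 were tested. In the list 3 were called higher and 1 lower, against 4.74% and 2.84% of all genes, with a median log2 fold change of 0.07. All 3 that rose were listed under the scaffold of the axon initial segment and node of Ranvier, where Scn8a channels cluster. Whether each works there in retina was not tested. The 7 genes of that group all had fold changes above 0, and for 6 of them every KO library lay above every WT library. That pattern was shown by 10.8% of all genes, but the list was chosen with earlier results of these data known. Setting these beside each other is therefore no test of the group.

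Ank2, an ankyrin that links membrane proteins to spectrin, stood at 478, 436 and 480 CPM in WT 1 to WT 3, and at 590, 602, 632, 617 and 665 CPM in KO 2 to KO 6. Its log2 fold change was 0.42 (SE 0.10, adjusted p = 0.0318, edgeR). Sptbn4, the βIV spectrin of initial segments, stood at 44.9, 38.2 and 47.3 CPM in WT and at 58.2, 50.5, 76.5, 76.9 and 89.3 CPM in KO. KO 4 to KO 6 were well above KO 2 and KO 3 for Sptbn4, but close to them for Ank2. The log2 fold change of Sptbn4 was 0.69 (SE 0.17, adjusted p = 0.0410, edgeR) and 0.39 after GC correction, still called (adjusted p = 0.0380, edgeR). Nrcam, a cell adhesion molecule of the node, stood at 91.3, 89.6 and 97.6 CPM in WT and at 131, 155, 115, 116 and 120 CPM in KO. KO 2 and KO 3 were the highest for Nrcam, which was also called in these 2 libraries alone (log2 fold change 0.63, adjusted p = 0.0372, edgeR). Over all libraries its log2 fold change was 0.46 (SE 0.11, adjusted p = 0.0384, edgeR).

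The other scaffold genes were not called by edgeR over all 8 libraries: Ank3 had 0.43, Cntn1 0.36, Cntnap1 0.35 and Nfasc 0.07. DESeq2 and voom each called 6 of the 7, where they called 3034 and 8248 of all genes. After GC correction 4 of the 7 were called higher, against 4.30% of all genes. They were the 3 above and Cntn1 (log2 fold change 0.53, adjusted p = 0.0162, edgeR). No partner gene was called in the fits without WT 1, WT 2, WT 3, KO 4, KO 5 or KO 6, against 9 without KO 2 and 13 without KO 3, where 2781 and 3992 of all genes were called (edgeR). In the 6 fits with 0 calls, 11 or 12 partner genes had an unadjusted p under 0.05, and calls over all genes went from 1529 to between 132 and 531. Over the 8 fits the log2 fold changes were 0.38 to 0.44 for Ank2, 0.39 to 0.50 for Nrcam, 0.59 to 0.80 for Sptbn4 and -0.51 to -0.33 for the calmodulin gene Calm2. Retinal ganglion cell markers, from the cells whose axons carry these scaffolds, overlapped between groups at 1185 to 1305 CPM in WT and 1168 to 1648 CPM in KO, and 0 of 11 were called by edgeR over all 8 libraries (4 at an unadjusted p under 0.05, 1 by DESeq2, 8 by voom). In KO 4 to KO 6 edgeR called 6 of the 11 higher and 2 lower, and 6 of the 7 scaffold genes higher, against 22.3% and 20.5% of all genes. With GC correction in these libraries 2 of the 11 were called higher and 3 lower. The scaffold genes called higher stayed at 6, against 15.9% of all genes higher and 15.7% lower. After GC correction over all libraries Sncg alone of the 11 was called, lower, and is named after its values were seen. Amacrine markers overlapped too, at 1058 to 1108 CPM and 1061 to 1282 CPM, with 1 of 10 called higher, a call lost after GC correction. Müller glia markers had 8 of 8 fold changes above 0 and 3 called higher. Their sums were 4017 to 4228 CPM in WT and 4138 to 6191 CPM in KO. In this fit over all 8 libraries 4.74% of all genes were called higher, the share for the amacrine and microglia counts too. Microglia markers had 7 of 8 above 0 and 2 called higher, with sums of 52.8 to 57.8 CPM and 61.5 to 82.1 CPM that did not overlap, and the vascular sums given for Cacna1c did not overlap either. After GC correction 2 Müller glia markers were called, and both microglia calls were lost, Csf1r at an adjusted p of 0.0574 and Tmem119 at 0.0958 (edgeR). The part of these cells in the scaffold values was not tested.

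**Figure D5:**
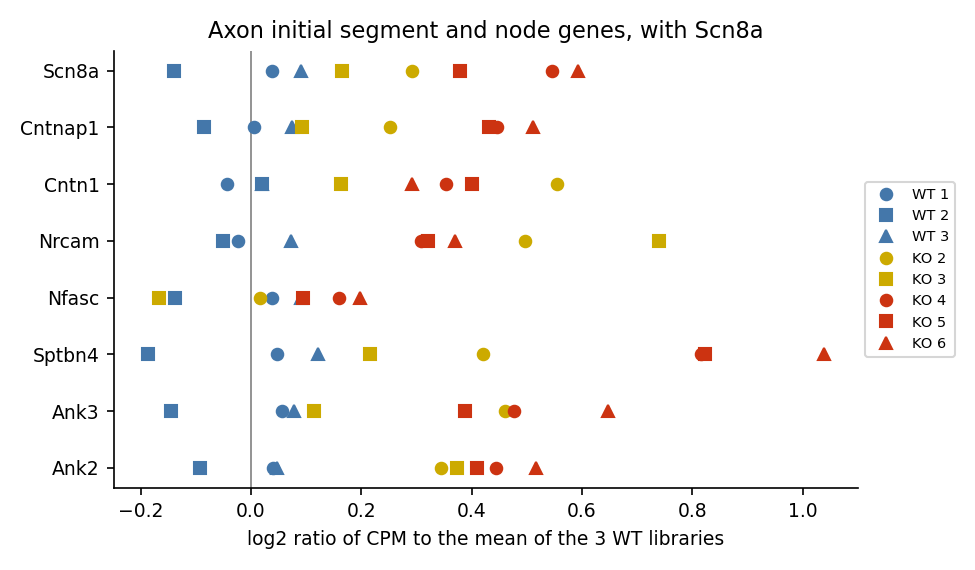
Log2 ratio of TMM-scaled CPM to the mean of the 3 WT libraries (x axis), 1 symbol per library. Drawn (y axis) are Scn8a and the 7 genes listed under the axon initial segment and node. The list was chosen with earlier results of these data known. The KO libraries lie to the right of all 3 WT libraries for every gene shown except Nfasc.

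The partner gene that fell was Calm2, which encodes calmodulin, the calcium sensor of many channels. It stood at 466, 568 and 452 CPM in WT and at 385, 416, 349, 341 and 328 CPM in KO, with no overlap. Its log2 fold change was -0.44 (SE 0.12, adjusted p = 0.0494, edgeR), and it was not called after GC correction (-0.25, adjusted p = 0.111, edgeR). Calm3, which encodes the identical protein, had 0.30. None of the fibroblast growth factor homologous factors, the RGK GTPases, the sodium leak channel genes or the calcium channel scaffold and adaptor genes was called by edgeR over all 8 libraries. In that order 0, 1, 1 and 3 had an unadjusted p under 0.05, DESeq2 called 0, 0, 0 and 3, and voom called 4, 1, 1 and 6. In KO 4 to KO 6, where 42.8% of all genes were called, edgeR called 1 higher and 3 lower of the 4 homologous factors, 1 RGK gene and 1 leak channel gene higher, and 3 higher and 3 lower of the 9 scaffold and adaptor genes. After GC correction over all libraries the ubiquitin ligase gene Nedd4l was called higher (0.40, adjusted p = 0.0449, edgeR), named after its values were seen.

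The 3 genes of the photoreceptor synaptic channel did not pass the test over all 8 libraries. The pore gene Cacna1f had a log2 fold change of -0.43 (SE 0.14, adjusted p = 0.0814, edgeR), with every KO library below WT, at 204 to 306 CPM against 327 to 382 CPM. It was called lower in KO 2 and KO 3 (-0.71, adjusted p = 0.0465, edgeR), in KO 4 to KO 6 (-0.26, adjusted p = 0.00587, edgeR), over all libraries by DESeq2 (adjusted p = 0.0194) and after GC correction (-0.57, adjusted p = 0.0162, edgeR). Cacna2d4 had 0.17 and Cacnb2 -0.02. Cacna2d4 was called higher in KO 4 to KO 6 (0.28, adjusted p = 0.00118, edgeR), but not there after GC correction (0.10, adjusted p = 0.141, edgeR).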

How the data were processed

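RNA sequencing counts of 8 mouse retina libraries, 3 labelled WT and 5 labelled KO, were analysed. The authors deposited whole-number counts per gene for 26824 genes. Trim Galore, Salmon 1.10.2, DESeq2 and the build GRCm38 are named, with no role or order, per the submitters' processing notes. Salmon gives estimated counts, so the deposited whole numbers may be rounded. The lowest total of a gene over the libraries was 16. The annotation release and strand setting are not given in the sources used here. Per the series text, the authors left out 2 unnamed KO samples and tested 3 against 3, so all 8 were used here.

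Counts were scaled by TMM and filtered with filterByExpr in edgeR 4.0.16 (R 4.3.3), which left 20167 genes. The test between groups was edgeR's quasi-likelihood test (glmQLFit, glmQLFTest), with no covariate. Benjamini-Hochberg adjustment ran over all tested genes, with an adjusted p under 0.05 as the threshold for a call. CPM values are TMM-scaled. The p-values measure the spread between mice, 1 library each. Positions, transcript lengths and GC content came from GENCODE M21 (GRCm38), which held 22121 of the genes by Ensembl identifier. The GC correction was an offset per library over 25 bins of GC content. The steps were checked on simulated counts.

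Named were Kcnv2, the called channel and partner genes, the 6 channel genes with the next smallest p and the gene with the highest level per kb of each family; other members appear where families are described. A few genes are not reported here by name, though every fit and count includes them. The members and lists were chosen with earlier results of these data known. Alternatives were edgeR with DESeq2 size factors or library size alone, DESeq2 1.42.0, limma 3.58.1 voom with quality weights, other filters, robust estimation, GC correction, subsets of libraries, and a block for shared replicate numbers. The crossed block and the GC-corrected subsets were added after seeing the data.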

Additional observations from a re-analysis of the deposited data

Results flagged for a closer look

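Kcnv2 in KO 2, at 585 CPM, lay apart from the other KO libraries (398 to 447 CPM). The gap to the nearest library was 0.738 of the range of the 5 KO libraries, above the limit of 0.71 for 5 samples. Of the 12 values examined this way, it was the only one past the limit, and chance passes about 1 in 20.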

How the results depend on the processing

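Over all genes, 1529 were called, against 3034 with DESeq2, 8248 with limma voom and quality weights, 180 with KO 2 and KO 3 against WT, and 118 to 8416 when 1 library or a pair of KO libraries was left out. Of the channel genes 4 were called, against 1 with library size alone, 2 with no filter on low counts, 16 with voom, 0 with KO 2 and KO 3, and 0 to 17 with libraries left out. The 0 came without KO 4 and KO 5, where 6 had an unadjusted p under 0.05 in edgeR. Of the partner genes 4 were called, against 2 with library size alone, 10 with DESeq2, 20 with voom, 1 with KO 2 and KO 3, and 0 to 21 with libraries left out. Kcnv2 had -0.24, -0.04 with KO 2 and KO 3, -0.36 with voom, and -0.38 to -0.15 with libraries left out. It was called with voom, without KO 2 (-0.35, adjusted p = 0.0298, edgeR) and without KO 2 and KO 3 (-0.38, adjusted p = 0.000116, edgeR). Scn1a (0.01) was -0.03 with library size alone, -0.04 with voom, 0.19 with GC correction (adjusted p = 0.0764, edgeR), 0.12 with KO 2 and KO 3, and -0.06 to 0.08 with other libraries left out. Over the union of exons the WT levels per kb were 8.20 for Scn1a, 10.8 for Cacna1h, 6.14 for Cacna2d3, 10.5 for Cacnb3 and 51.0 for Cacng7. The causes were not tested.

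Replicate numbers 2 and 3 are shared by the groups but not stated to pair mice, and deviations of same-numbered libraries correlated at -0.19. With the number as a block, these 4 libraries gave 52 calls over all genes and 0 channel genes (2 with an unadjusted p under 0.05 in edgeR) and 0 partner genes. Without the block they gave 14, 0 and 0. The crossed pairing, chosen after seeing the data, gave 527, 1 and 1.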
